A study of Mus musculus with 2 samples.

Results

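PDGFRAhi fibroblasts (FB) lie beneath the gut epithelium and take their name from high levels of the receptor for platelet-derived growth factor, encoded by Pdgfra. They are described here in grafts of embryonic mouse intestine that had been sorted for mesenchymal stromal cells (MSC) and measured by single-cell RNA sequencing. A cell was counted as PDGFRAhi when its barcode held at least 500 genes, at most 10% mitochondrial molecules, at least 1 unique molecular identifier (UMI, a counted RNA molecule) of Pdgfra, and UMIs of at least 2 of Bmp3, Bmp5 and Bmp7. By this rule 887 of 17783 cells were PDGFRAhi. The members were thus chosen by their own measured UMIs of these 4 genes, so the levels of the 4 genes are given as a description only.

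The large intestinal (LI) library and the small intestinal (SI) library each came from EYFP (C57BL/6) embryos, in which every donor cell carries a yellow fluorescent protein (YFP). The embryos were from EYFP males mated with C57BL/6Nrj females, and their large or small intestine was dissected at stage E12.5. The tissue grew for 4 weeks in adult wild-type (WT) mice, beneath the capsule of a kidney. Live YFP+ Itgb1+ cells that lacked CD31, EpCAM, L1CAM, BP3, CD45 and Ter119 were then sorted. Host cells carry no YFP, and the sort leaves out epithelial, endothelial, glial, lymphoid stromal, immune and red blood cells. Colonic grafts had been pooled before sequencing, and how the SI grafts were combined is not given in the sources used here. A 3′ or a 5′ kit was used for each library, and which was used for which is not given either, so kit and region cannot be told apart. With 1 library for each graft there is no replicate, and no test between the grafts was possible. All intervals are 95% intervals for counting error alone.

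Bone morphogenetic proteins (BMP) are secreted ligands of the TGF-β family that restrain proliferation of the gut epithelium, while Wnt ligands and R-spondins sustain its stem cells. Fibroblasts close to the epithelium supply BMP ligands, and fibroblasts deeper in the wall supply BMP antagonists such as gremlin 1. PDGFRAhi FB are known as one of the main sources of BMP ligands and of Wnt5a in this layer, and include the Foxl1-expressing cells called telocytes and alpha smooth muscle actin-positive myofibroblasts. The position of a cell was not measured here.

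The LI graft held 454 PDGFRAhi cells among 9873 (4.60%, 4.19 to 5.03%), and the SI graft held 433 among 7910 (5.47%, 4.98 to 6.00%). Of the LI graft members, 34.8% (30.4 to 39.4%) had UMIs of all 3 BMP genes, as did 42.3% (37.6 to 47.1%) in the SI graft. The pair of Bmp5 and Bmp7 without Bmp3 was the most common combination in the LI graft (41.2%), and it came next after all 3 in the SI graft (35.3%). Pdgfra stood at 553 CPM (UMIs of a gene per 1000000 UMIs of all cells of a group, pooled) in the LI graft members and at 1036 CPM in the SI graft members. The median member held 3 Pdgfra UMIs in the LI and 7 in the SI graft, and exactly 1 was seen in 112 and 40 cells. Bmp3 had 188 and 197 CPM, Bmp5 332 and 280.4 CPM, and Bmp7 265 and 405 CPM in LI and SI graft members, respectively.

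The rule needs several UMIs, so depth bears on who meets it. Median depth was 5434 UMIs in LI graft members and 5275 UMIs in all other LI graft cells, against 6521 and 5634 UMIs in the SI graft. After every cell was thinned to 2000 UMIs, the same rule took 1.65% of the LI and 2.32% of the SI graft cells. The gate had no sharp edge. Cells just outside it, with a Pdgfra UMI and exactly 1 of the 3 BMP genes (916 and 562 cells), had 42.4 CPM of Sox6 in the LI and 37.6 CPM in the SI graft. Cells just inside it, with exactly 2 (296 and 250 cells), had 156 and 229 CPM, cells with all 3 had 332 and 362 CPM, and Pdgfra+ cells with none had 3.38 and 2.49 CPM. Grem1 fell in the same order, from 498 and 871 CPM in Pdgfra+ cells with no BMP gene to 47.4 and 50.3 CPM in cells with all 3. Cells with at least 2 BMP genes and no Pdgfra UMI, outside the gate on its other side, were 98 and 23.

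The 6 general fibroblast markers summed to less in the members than in all other cells, 25050 against 36790 CPM in the LI and 29080 against 41730 CPM in the SI graft. Of the 6, Pdgfra was higher in the members, as the rule required, and Col1a1, Col1a2, Col3a1, Dcn and Lum were lower in both grafts. The name was checked against 7 markers of PDGFRAhi FB that the rule did not use, Foxl1, Sox6, F3, Wnt5a, Wnt4, Tnc and Nrg1. Summed over the 7, LI graft members had 1629 CPM against 443.6 CPM in all other cells, and SI graft members had 1497 against 285 CPM. Each marker except Tnc in the LI graft (217 against 144 CPM) was at least 2-fold higher in the members. The 3 markers of Fgfr2+ FB (Fgfr2, Adamdec1 and Cxcl14) summed to 9252 CPM in LI and 4421 CPM in SI graft members against 2863 and 1946 CPM in all other cells, most of it Adamdec1 (8859 and 3726 CPM in the members). Fgfr2 itself was not higher in the members, with 18.0 and 8.56 CPM against 22.5 and 24.4 CPM, and after thinning its UMIs were seen in 3.12% and 1.91% of them against 4.90% and 4.69% of all other cells. Among markers of cells that the sort should leave out, the 4 of endothelium summed to 2.77 and 0.634 CPM in LI and SI graft members (11.8 and 7.86 CPM in all other cells), with Cdh5 and Emcn at 0 UMIs in both. The 5 of epithelium summed to 2.77 and 11.4 CPM (14.3 and 96.3 CPM), with Cdh1 and Krt20 at 0. The 5 immune markers summed to 11.1 and 14.3 CPM (29.6 and 18.5 CPM), with Cd3e at 0 in both grafts and Cd79a at 0 in the SI graft. Tyrobp of myeloid cells was seen in 3.74% and 4.62% of the members and in 3.56% and 3.26% of all other cells, and Cd52 in 1.32% and 4.16% against 2.67% and 2.78%. The 4 glial or neuronal markers summed to 4.50 and 2.85 CPM, against 4.54 and 2.85 CPM in all other cells, with Sox10 and Elavl4 at 0 in both grafts and S100b at 0 in the LI graft. The 5 mesothelial markers summed to 8.66 and 3.17 CPM in LI and SI graft members (54.4 and 55.8 CPM in all other cells), with Msln and Lrrn4 at 0 in both. The 3 markers of kidney tubule, the host site, summed to 1.04 and 2.22 CPM. The 6 pericyte markers summed to 164 CPM in LI graft members and 367 CPM in SI graft members (594.8 and 1493 CPM in all other cells), the 5 smooth muscle cell (SMC) markers to 305 and 495 CPM (479 and 1303 CPM), and the 3 markers of interstitial cells of Cajal to 136 and 135 CPM (124 and 67.9 CPM). The 6 markers of CD81+ FB, the adventitial fibroblasts of the gut wall, summed to 414 and 379 CPM in the members, with none at 0, against 1376 and 1639 CPM in all other cells. The 4 markers of CD90+ or Igfbp5+ FB (Thy1, Igfbp5, Pparg and Col15a1) went against the name in the SI graft. They summed to 887 CPM in LI and 1924 CPM in SI graft members, against 920 and 458 CPM in all other cells. In SI graft members most of this was Igfbp5.

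Barcodes with the highest doublet scores of their library, in number 0.8% for every 1000 barcodes, were more frequent among PDGFRAhi cells (17.4% and 13.2%) than among all other cells (9.95% and 8.45%). Among SI graft members 25.4% had only Y-linked sex calls and 54.5% had only Xist, while LI graft members had 5.07% and 89.2%, so the mix of female and male donor embryos differed between the libraries. Of 14 barcodes found in both libraries, 2 belonged to a PDGFRAhi cell of one library and to any cell of the other.

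Sox6 and Tspan13 led the genes higher in PDGFRAhi cells of both grafts, and C3 and Il33 led those that were lower. Of 8267 genes compared with all other cells of the same library, 173 were at least 2-fold higher in the members of both grafts (2.09%) and 199 were at least 2-fold lower in both (2.41%). The 4 rule genes were left out. Ratios are log2 ratios of pooled CPM after 1 CPM was added to each side. Without the barcodes of highest doublet score the numbers were 197 and 237.

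Sox6 (ENSMUSG00000051910, chr7 115470872 to 116038796, mm10), a transcription factor of the SoxD family, ranked first by the smaller of its ratios in the 2 grafts. It stood at 220.4 CPM (204 to 238) in LI graft members against 10.9 CPM in all other cells, and at 289.6 CPM (271 to 309) in SI graft members against 8.39 CPM, log2 ratios of 4.22 and 4.95. In cells thinned to 2000 UMIs a Sox6 UMI was seen in 31.0% (26.8 to 35.5%) of LI graft members, 2.24% of all other cells and 2.09% of Rgs5+Notch3+ mural cells, which should lack it. The SI graft gave 41.4% (36.7 to 46.3%), 1.5% and 3.01%. Sox6 was therefore above the level of stray RNA in both grafts, although most thinned members had no UMI of it.

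Tspan13, a tetraspanin of the cell membrane, had 118.5 CPM in LI graft members against 11.1 CPM, and 187 CPM in SI graft members against 6.02 CPM. Pcsk6 encodes a protease that activates TGF-β family precursors, and stood at 114 against 14.1 CPM and at 224.5 against 11.2 CPM. Chp2, which encodes a calcineurin B-like protein, had 142 against 13.8 CPM and 106 against 10.8 CPM. All 3 had log2 ratios of 2.94 or more in both grafts. Gnai1, an inhibitory G protein subunit, followed with ratios of 2.89 and 3.28, Emid1, a matrix protein, with 3.27 and 2.86, and Bpgm, which makes the glycolytic side product 2,3-bisphosphoglycerate, with 2.79 and 3.97. Col6a4, a collagen VI chain, stood at 2.68 and 3.30, the ferric reductase gene Cybrd1 at 2.57 and 3.40, and Trp53i11, which is induced by p53, at 2.74 and 3.69. Emid1 was also high in mural cells, at 319 and 265 CPM against 594.6 and 498 CPM in the members, so that it was less restricted than Sox6.

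Other Pdgfra+ cells, with a Pdgfra UMI and none of the 3 BMP genes, numbered 3624 in the LI and 3033 in the SI graft, and they gave a closer comparison among fibroblasts. Of 8205 genes, 250 were at least 2-fold higher in PDGFRAhi cells of both grafts (3.05%) and 201 were at least 2-fold lower (2.45%). Sox6 stood at 3.38 and 2.49 CPM in these cells and Emid1 at 21.5 and 21.3 CPM, which gave log2 ratios of 5.66 and 6.38 for Sox6 and of 4.73 and 4.48 for Emid1. The all-gene median ratio was 0.12 and 0.20 in this comparison, and under TMM scaling the share of higher genes among those past 2-fold went from 55.4% to 43.5%, so the balance of higher and lower genes depends on the scaling.

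**Figure D1:**
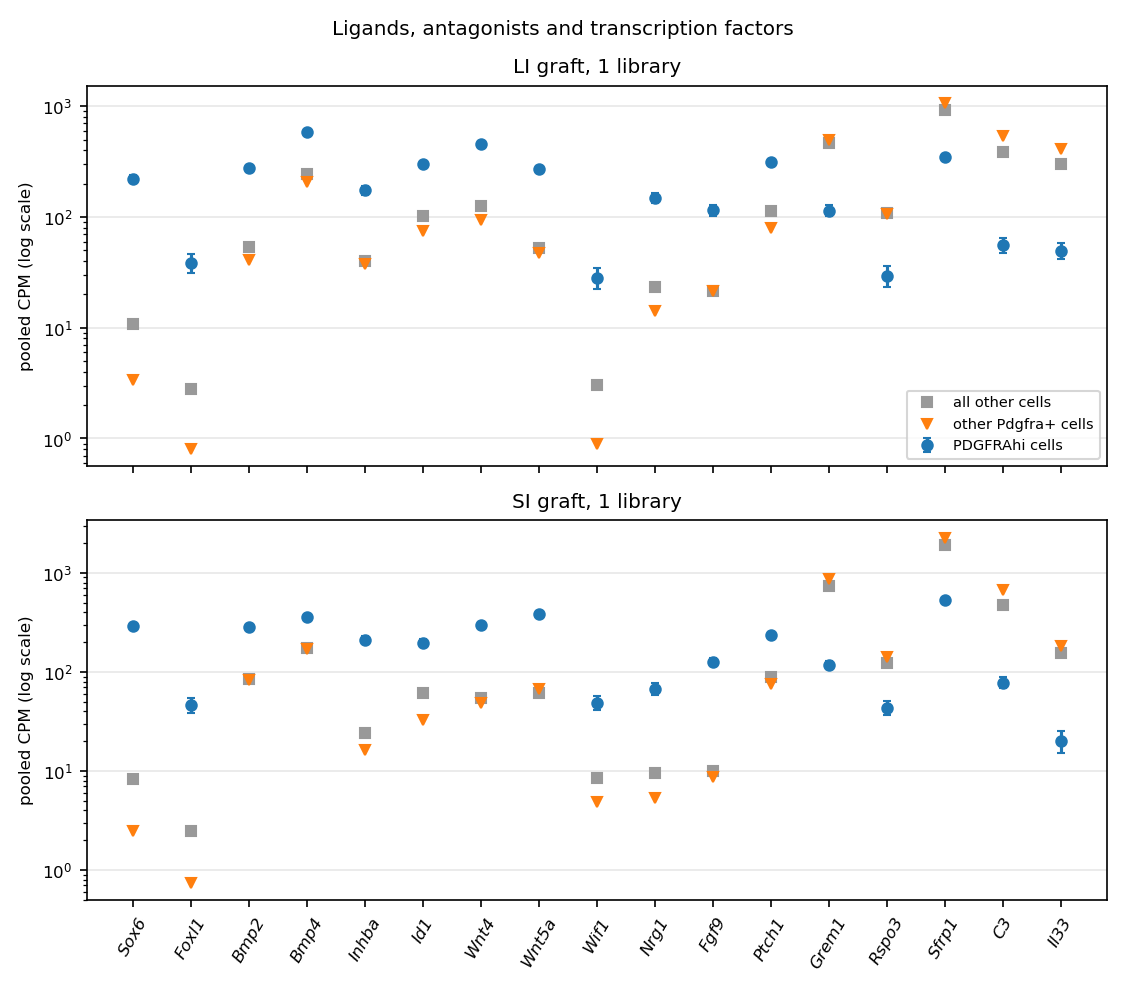
Pooled CPM on a log scale of 17 genes in PDGFRAhi cells (circles, with 95% Poisson intervals), other Pdgfra+ cells (triangles) and all other cells (squares) of the LI graft (upper panel) and SI graft (lower panel), 1 library each. The circles lie above both other groups from Sox6 to Ptch1 and below them from Grem1 to Il33 in both grafts.

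Among 10 transcription factors of gut mesenchyme, 8 reached a mean of 10 CPM, of which 3 were at least 2-fold higher in the members of both grafts against all other cells (Sox6, Foxl1, Foxf2) and 1 was lower (Osr1), against 2.09% and 2.41% of all genes. Foxl1 (ENSMUSG00000097084, chr8 121127940 to 121130644), the winged-helix gene that marks telocytes, had 38.1 CPM (31.3 to 45.9) in LI graft members and 46.0 CPM (38.8 to 54.1) in SI graft members. It stood at 2.80 and 2.50 CPM in all other cells and at 0.807 and 0.737 CPM in other Pdgfra+ cells. A Foxl1 UMI was seen in 18.9% of LI graft members and 21.7% of SI graft members before thinning, and in 8.26% (5.88 to 11.2%) and 8.81% (6.28 to 11.9%) after it, against 2.72% and 0.803% of thinned mural cells. Most PDGFRAhi cells thus had no Foxl1 UMI at this depth, which does not show that they lack it. Foxf2 had 81.1 and 65.3 CPM in the members against 17.1 and 17.9 CPM. Foxf1, its relative downstream of hedgehog signalling, had 332 and 304 CPM against 143 and 152 CPM, just past 2-fold in the LI graft (1.21) and just short of it in the SI graft (0.99). Osr1, a factor of early mesenchyme, was lower, with 18.7 and 16.5 CPM against 58.5 and 54.9 CPM.

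Of the BMP ligands that the rule did not use, Bmp2 and Bmp4 were at least 2-fold higher in both grafts and Gdf10 was lower. Inhba, an activin gene kept on the same list, was higher too. That made 3 of 4 genes higher and 1 lower, against 2.09% and 2.41% of all genes. Bmp2 (ENSMUSG00000027358, chr2 133552159 to 133562885) had 274 CPM (256 to 294) in LI graft members against 53.6 CPM, and 282 CPM (264 to 301) in SI graft members against 84.0 CPM. Inhba, the subunit of activin A, had 174 against 40.3 CPM and 212 against 24.1 CPM, log2 ratios of 2.08 and 3.08. Bmp4 had 583 against 246 CPM and 358 against 175.5 CPM, and its ratio of 1.03 in the SI graft was close to the limit. Gdf10, a BMP3-like ligand, went the other way, with 12.8 against 41.9 CPM in the LI graft and 1 UMI (0.317 CPM, 0.00803 to 1.77) against 28.3 CPM in the SI graft.

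Genes that BMP signals induce in the receiving cell gave a mixed picture. Id1 had 301 CPM in LI graft members against 101 CPM and 198 CPM in SI graft members against 60.9 CPM. Id2 had 409.5 and 380.3 CPM against 187 and 169 CPM, while Id4 was lower (19.8 and 14.6 against 61.8 and 52.7 CPM). The ratios of Id3 were 0.46 and -0.13. Of 7 BMP target genes measured, 2 were thus higher, 1 was lower and 4 were past 2-fold in neither direction in both grafts. Over all genes 2.09% were higher and 2.41% lower. None of 3 BMP receptors differed by 2-fold in both grafts.

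BMP antagonists divided. Grem1 (ENSMUSG00000074934, chr2 113746164 to 113758646), which traps BMP2 and BMP4, stood at 114 CPM (102 to 127) in LI graft members against 467 CPM, and at 118 CPM (106 to 130) in SI graft members against 739.7 CPM. Twsg1, which modulates BMP in the extracellular space, was higher, with 188.5 and 243 CPM against 61.7 and 76.3 CPM. Nbl1, an antagonist of the DAN family, was higher as well, with 1333 and 1747 CPM against 491 and 388 CPM. The Grem1 that remained sat largely in one subcluster of each graft, described further on, with 324 and 391 CPM against 3.91 to 49.1 CPM and 6.06 to 120.2 CPM in the others.

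Of 3 listed Wnt ligands that reached the minimum in both grafts, Wnt5a and Wnt4 were at least 2-fold higher, against 2.09% of all genes. Both are non-canonical in many settings. Wnt10a was not on the list and Wnt6 did not reach the minimum, and both are described further on for an SI graft subcluster. Wnt5a (ENSMUSG00000021994, chr14 28504750 to 28527448) had 271 CPM (253 to 291) in LI graft members against 52.0 CPM, and 387 CPM (366 to 409) in SI graft members against 61.1 CPM. Wnt4 (ENSMUSG00000036856, chr4 137277489 to 137299726) had 461 against 127 CPM and 299.7 against 54.4 CPM. Wnt5b, the other of 3 ligands measured, had ratios of 0.55 and 0.08. Rspo3, the R-spondin that amplifies Wnt signals in stem cells, was lower, with 29.1 and 43.5 CPM against 108 and 124 CPM.

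Of 6 secreted Wnt antagonists measured, Sfrp1 and Sfrp4 were at least 2-fold lower in both grafts (2.41% of all genes were) and Wif1 was higher (2.09% were). Sfrp1 had 347 and 536 CPM against 922 and 1901 CPM. Wif1, which binds Wnt proteins directly, had 28.1 CPM (22.3 to 34.9) against 3.03 CPM and 48.8 CPM (41.4 to 57.2) against 8.41 CPM. Sfrp2 took opposite directions in the 2 grafts, since it was 26.3 and 24.4 CPM in the members but 88.3 CPM in the other LI graft cells and 6.39 CPM in the other SI graft cells. None of the 2 Wnt target genes measured passed 2-fold.

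Among epithelial growth factors, Nrg1 and Fgf9 were at least 2-fold higher, Hbegf was lower, and 4 of the 7 measured passed in neither direction in both grafts. The shares over all genes were 2.09% higher and 2.41% lower. Nrg1 (ENSMUSG00000062991, chr8 31814551 to 32884029), neuregulin 1, a ligand of ErbB3 and ErbB4, had 149 CPM (135 to 164) in LI graft members against 23.3 CPM. In SI graft members it had 67.9 CPM (59.1 to 77.6) against 9.61 CPM. Fgf9 had 115 against 21.7 CPM and 126.5 against 9.94 CPM. Thinned LI graft members had a Nrg1 UMI in 20.8% of cells and thinned SI graft members in 7.86%, against 0.418% and 0.201% of thinned mural cells.

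In the hedgehog pathway, Ptch1, the receptor that is itself induced by hedgehog, was higher in the members (312.5 and 236 CPM against 112.5 and 88.9 CPM). Gli1, another induced gene, had 20.4 CPM (15.6 to 26.4) and 19.7 CPM (15.1 to 25.2) against 13.6 and 13.1 CPM, a log2 ratio of 0.55 in both grafts. The co-receptor genes Boc and Gas1 were lower, with Gas1 at 77.6 and 34.3 CPM against 341 and 243 CPM. Of 7 genes measured, 1 was at least 2-fold higher in both grafts and 2 were lower, against 2.09% and 2.41% of all genes.

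Some contractile genes were higher in the members than in other Pdgfra+ cells, and none was higher than in the whole sort, which holds SMC and pericytes. Acta2, which encodes alpha smooth muscle actin, had 1263 CPM in LI graft members and 2241 CPM in SI graft members, against 473 and 618 CPM in other Pdgfra+ cells and 988 and 1993 CPM in all other cells. Against other Pdgfra+ cells 5 of 12 contractile genes were at least 2-fold higher (Acta2, Myh11, Myl9, Synpo2, Mylk), against 3.05% of all genes, none was lower and 7 were past 2-fold in neither direction. Against all other cells none was higher and 2 were lower, where 2.41% of all genes were lower. These were Cnn1 (23.6 and 14.3 against 61.9 and 161 CPM) and Lmod1. Muscle cells of the same libraries had 6041 and 9458 CPM of Acta2 and 603 and 1452 CPM of Cnn1, well above the members.

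Basement membrane genes were higher in 5 of 16 cases and lower in none, and interstitial matrix genes were lower in 2 of 17 cases (Eln, Mfap5) and higher in none, against 2.09% higher and 2.41% lower over all genes. Col4a5 and Col4a6, neighbours on the X chromosome whose chains assemble together, gave the largest ratios of the 5. Col4a5 had 557 CPM in LI graft members against 134.5 CPM and 297 CPM in SI graft members against 32.2 CPM. Col4a6 had 158 against 29.0 CPM and 54.6 against 4.10 CPM. Lama4, Lama5 and Lamb1, laminin chains, had log2 ratios from 1.21 to 1.86. The elastic fibre genes Eln and Mfap5 were lower, with Mfap5 at 133 and 146 CPM against 764 and 593 CPM. Col1a1 had ratios of -0.56 and -0.68.

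**Figure D2:**
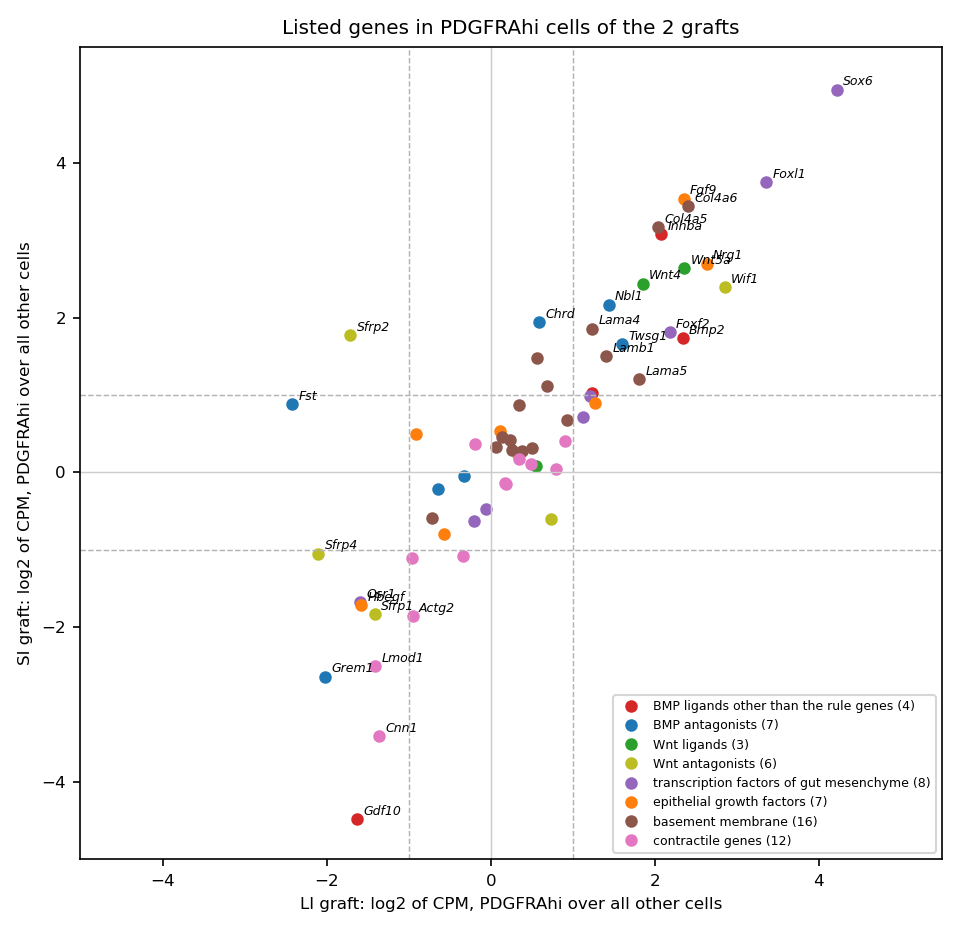
Log2 ratio of pooled CPM in PDGFRAhi cells over all other cells, LI graft (horizontal) against SI graft (vertical), for the genes reported here from 8 lists with a mean of at least 10 CPM in both grafts; each point is 1 gene, dashed lines mark 2-fold, and the number of genes in each list stands in the legend. Sox6 (4.22 and 4.95) lies farthest to the upper right, Gdf10 (-1.63 and -4.48) lowest, and Sfrp2 (-1.71 and 1.78) in the upper left.

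Genes lower in PDGFRAhi cells were led by C3, complement component 3, at 55.4 CPM (47.2 to 64.7) in LI graft members against 389.7 CPM, and at 77.7 CPM (68.3 to 88.1) in SI graft members against 479 CPM. Il33, an alarmin of fibroblasts, had 49.2 and 19.98 CPM against 299 and 156 CPM. Il6 and the hyaluronan synthase gene Has1 had ratios from -2.15 to -2.49, and the protease gene Prss23 -2.19 and -2.61. Ebf1, Rgs5 and Ndufa4l2, which are high in mural cells (Rgs5 3944 and 3722 CPM), were lower as well. Against other Pdgfra+ cells the lowest ratios were those of C3, Thbs4, Il33, Penk, Has1, Lbp, Prss23 and C1qtnf3, from -2.41 to -3.33.

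Genes of MHC class II, which present antigen, were lower in the members, and most chemokine genes were past 2-fold in neither direction in both grafts. Of a list of 10 interferon and MHC class II genes, Cd74, H2-Aa, H2-Ab1 and H2-Eb1 were at least 2-fold lower in both grafts, against 2.41% of all genes, and the 6 others were past 2-fold in neither direction. These 4 were the MHC class II genes of the list, with Cd74 at 68.6 and 64.7 CPM against 286 and 371 CPM. By share of cells with a UMI, H2-Ab1 differed little (14.1% and 18.9% of members against 15.1% and 16.9% of all other cells). Cd74, H2-Aa and H2-Eb1 were seen in a smaller share of the members in both grafts. Of 9 chemokines Ccl2, Ccl7 and Cxcl1 were lower (against 2.41% of all genes), none was higher and 6 were neither, with median ratios of -0.26 and 0.14. Ccl7 had 26.3 CPM in LI graft members against 406 CPM and 32.4 CPM in SI graft members against 82.9 CPM. Among 9 surface genes of the sort and of subset gates, Cd81, Thy1, Mcam, Esam and Ackr4 were at least 2-fold lower in both grafts, against 2.41% of all genes. Cd81, the tetraspanin that marks adventitial FB, had 124 and 40.6 CPM against 439 and 385 CPM. Cd34 was 128 and 175 CPM against 216 and 321 CPM, less than 2-fold lower. Its UMIs were seen in 43.0% and 48.3% of the members against 46.3% and 49.0% of all other cells. After thinning the shares were 19.9% and 23.1% against 27.9% and 33.3%. The study gated PDGFRAhi FB of grafts as negative or low for CD34 protein, and Cd34 RNA did not set the members apart in this way.

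Genes of the cell cycle were higher in the pooled members, through a small number of cells. Mki67, Top2a, Cenpf and Birc5 were at least 2-fold higher in both grafts (4 of 5 measured, against 2.09% of all genes). Top2a, the DNA topoisomerase of dividing cells, stood at 53.7 and 115 CPM against 19.7 and 31.8 CPM. It reached 942 and 1091 CPM in 14 LI graft and 23 SI graft members, a subcluster in each graft with a median of 10853.5 and 11312 UMIs and with 50% and 39.1% of its barcodes among the highest doublet scores. Summed over the cell cycle list, these cells had 3228 and 3807 CPM and the remaining members 29.6 and 51.0 CPM, below the 83.3 and 134.6 CPM of all other cells, cycling ones included. The part of their depth in meeting the gate was not tested. Of 9 immediate early and heat shock genes, Hspa1b was at least 2-fold higher in both grafts (356.5 and 396 against 135.5 and 158.5 CPM), against 2.09% of all genes.

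A narrower comparison was with Pdgfra+ cells with UMIs of Fgfr2 and Adamdec1 and none of Grem1 or the 3 BMP genes (171 LI and 100 SI graft cells). They are called Fgfr2+Adamdec1+ cells and need not match the Fgfr2+ FB of the adult gut, since cells with Grem1 were left out. Of 8046 genes, 170 were at least 2-fold higher in the members of both grafts (2.11%) and 97 lower (1.21%). These counts include Grem1, which the gate of the compared cells bars, and Fgfr2, which it requires, so their direction was set by that gate. Wnt4 did not separate the cells, with 461 CPM in LI graft members against 384 CPM and 299.7 CPM in SI graft members against 299 CPM. Ptch1 (ratios 0.18 and 0.43) and Bmp4 (0.26 and -0.29) did not separate them by 2-fold either. Wnt5a did, at 271 and 387 CPM against 42.2 and 43.9 CPM, as did Id1 with ratios of 2.18 and 2.64. Inhba had 174 against 2.22 CPM and 212 against 24.4 CPM. Fgf9 had 115 against 4.44 CPM in the LI graft and 126.5 CPM against no UMI among the SI graft Fgfr2+Adamdec1+ cells, whose limit of 3 UMIs is 4.88 CPM. Sfrp1 was lower in the members, with 347 and 536 CPM against 1414 and 3023 CPM. Adamdec1, a metalloprotease of gut fibroblasts, had 8859 and 3726 CPM in the members and 9106 and 8599 CPM in the Fgfr2+Adamdec1+ cells, for which its UMIs were required.

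Gene lists from adult sorted fibroblasts gave an outside view, since those samples are other than the grafts. Of the genes that bulk RNA sequencing found higher in adult PDGFRAhi FB than in Fgfr2+ FB, 185 reached 10 CPM here. Of these, 71 (38.4%) were at least 2-fold higher in graft PDGFRAhi cells than in all other cells, against 2.09% of all genes, while 1 was lower. Their median log2 ratio was 0.80 in the LI and 0.99 in the SI graft, against 0.09 and 0.16 over all genes. Of 210 genes higher in adult Fgfr2+ FB, 75 (35.7%) were at least 2-fold lower in graft PDGFRAhi cells, against 2.41% of all genes, and 1 was higher, with medians of -0.81 and -1.14. Set against the graft Fgfr2+Adamdec1+ cells, 78 of 180 genes of the first list (43.3%) were higher and none was lower. Of 208 genes of the other list, 59 were lower (28.4%) and 1 was higher. Over all genes 2.11% were higher and 1.21% lower in that comparison.

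Between LI and SI graft PDGFRAhi cells, 187 of 8673 genes were at least 2-fold higher in the LI graft (2.16%), with 218 higher in the SI graft (2.51%). Under TMM scaling the numbers were 222 and 183, so which graft had more genes higher depended on the scaling. Pitx1 (ENSMUSG00000021506, chr13 55825051 to 55836192), a homeobox gene of posterior mesoderm, had 253.6 CPM (236 to 273) in LI graft members and 1.90 CPM (0.698 to 4.14) in SI graft members, a log2 ratio of 6.45 (5.93 to 8.51). In all other cells the ratio was 3.28, from 140 and 13.6 CPM. Lrat (ENSMUSG00000028003, chr3 82892579 to 82903973), which esterifies retinol, had 0.693 CPM (0.0839 to 2.50) in LI graft members and 111 CPM (99.7 to 123) in SI graft members, a ratio of -6.05 (-10.37 to -5.46) that rests on 2 UMIs in the LI graft. In all other cells the ratio was -3.51.

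Hox genes of groups 9 to 13, which mark posterior positions, summed over all 16 to 426 CPM in LI graft members and 13.3 CPM in SI graft members. The 23 genes of groups 1 to 8, of more anterior positions, summed to 259.9 and 664 CPM. Hoxa9 had 58.9 CPM in LI graft members and no UMI in SI graft members, at least 61.9-fold higher against the limit of 3 UMIs (0.952 CPM). Hoxc10, Hoxd10 and Hoxd11 were also without a UMI in SI graft members and were at least 48.4-fold, 45.1-fold and 43.7-fold higher in LI graft members. Hoxa10 (87.0 CPM) and Hoxd9 (65.5 CPM) of LI graft members had 1 and 4 UMIs in SI graft members. Hoxb4 had 31.2 and 99.3 CPM and Hoxc4 7.97 and 62.2 CPM, and Hoxb2 18.7 and 75.5 CPM, in LI and SI graft members. Hoxd4 went the other way, with 17.7 and 7.61 CPM. Of 12 genes of groups 1 to 8 that reached a mean of 10 CPM, 9 were at least 2-fold higher in the SI graft, 1 in the LI graft and 2 in neither. Over all genes 2.51% were higher in the SI and 2.16% in the LI graft. The minimum favours such counts, since a gene could reach it through 1 graft alone. Hoxc4 did so through the SI graft and Hoxd4 through the LI graft. Hoxa3, Hoxb7, Hoxb3 and Hoxa5 were seen in fewer LI graft members than Hoxc4 (3.08%, 3.30%, 4.19% and 4.41% against 4.63%). The count of 9 is thus a description only. None of 7 Hox genes of groups 1 to 8 was past 2-fold in both grafts between PDGFRAhi and all other cells of the same graft.

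**Figure D3:**
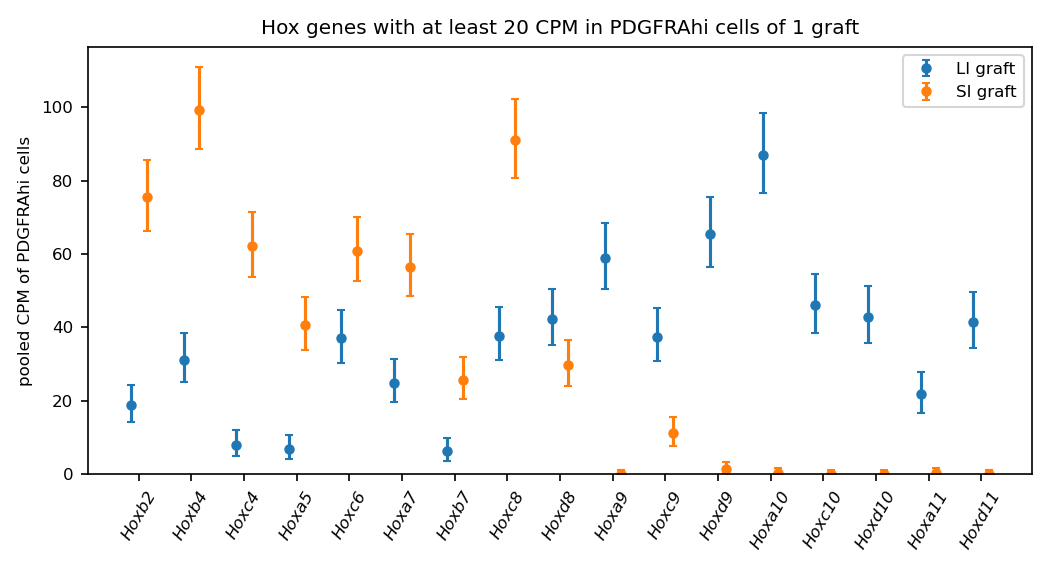
Pooled CPM (linear axis) of the 17 Hox genes with at least 20 CPM in PDGFRAhi cells of the LI graft (blue) or SI graft (orange), in order of paralogue group, with 95% Poisson intervals for counting error. Hoxa9, Hoxc10, Hoxd10 and Hoxd11 lie at 0 in the SI graft, and Hoxb4 reaches 99.3 CPM there.

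Dio2 (ENSMUSG00000007682, chr12 90724552 to 90738438), the deiodinase that activates thyroid hormone, differed between the libraries in PDGFRAhi cells and by less than 2-fold in all other cells. It had 15.6 CPM (11.4 to 20.9) in LI graft members and 111 CPM (99.98 to 124) in SI graft members, a log2 ratio of -2.76 (-3.32 to -2.39). All other cells had 4.20 and 3.22 CPM, a ratio of 0.30. The apelin receptor gene Aplnr had 9.01 and 94.8 CPM in the members against 0.963 and 7.98 CPM in all other cells. Il34, a ligand of the macrophage growth factor receptor, had 19.4 and 121 CPM against 12.9 and 34.2 CPM. Trp53i11 had 69.6 and 278 CPM, and the retinaldehyde dehydrogenase gene Aldh1a3 15.9 and 80.2 CPM. Dio2, Aplnr and Il34 were higher in SI graft members also among Xist cells alone, with ratios of -2.79, -3.19 and -2.68.

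Cxcl14, a chemokine gene of subepithelial fibroblasts, had 375 CPM in LI graft members and 687 CPM in SI graft members. All other cells went the opposite way, with 283 CPM in the LI and 52.0 CPM in the SI graft, so that the members stood out by 0.40 in the LI and 3.70 in the SI graft. Igfbp5, which binds insulin-like growth factors and names a fibroblast subset of the adult small intestine, followed the same pattern with 711 and 1716 CPM in the members and 686 and 267 CPM in all other cells. Ratios of the members over all other cells were 0.05 and 2.68 for it. Etv1, an ETS transcription factor that also marks interstitial cells of Cajal, had 80.7 and 126 CPM against 50.1 and 33.8 CPM.

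Higher in the LI graft were Rasl11a (397 and 76.4 CPM), Fgl2 (158 and 30.8 CPM), Rgs2 (122 and 27.6 CPM) and the matrix gene Postn (978.5 and 229 CPM), whose ratios were 0.15, 0.58, 0.61 and 0.90 in all other cells against 2.36, 2.32, 2.11 and 2.09 in the members. Serpina3n, a protease inhibitor gene (62.4 and 9.20 CPM), and Ly6c1 (118 and 25.4 CPM) had ratios of 2.64 and 2.17 in the members. Nrg1 (149 and 67.9 CPM) was higher in the LI graft among all other cells too (1.19), as was Ptgs2, the prostaglandin synthase gene (92.2 and 45.4 CPM). Rasl11a had a ratio of 0.38 in cells with Y-linked UMIs only, of which the LI graft held 23. Ctla2a, a cathepsin inhibitor gene, had 57.9 and 1.59 CPM in the members, but without the highest doublet scores its ratio went from 4.51 to -0.05. LI graft subcluster 3 held 198 CPM of it and the other LI graft subclusters 3.32 CPM or less, and LI graft members with Xist and no Y-linked UMI had 4.40 CPM. The chemokine gene Ccl11 had 63.1 and 261 CPM, with a ratio of -2.03 in all members and 0.03 in cells with Y-linked UMIs only. The matrix gene Smoc2 had 29.8 and 118 CPM.

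Interferon-inducible and immediate early genes differed as well. Cxcl9, Cxcl10, Gbp2 and Igtp were at least 2-fold higher in SI graft members (4 of 10 genes of that list, against 2.51% of all genes). Cxcl9, a chemokine gene induced by interferon gamma, had 161 CPM in LI graft members and 376 CPM in SI graft members, and 308 and 884 CPM in all other cells. In Xist cells alone it had 126 and 131 CPM, and in cells with Y-linked UMIs only 406 and 673 CPM. Fos, Fosb, Jun and Junb, which rise when tissue is dissociated, were at least 2-fold higher in LI graft members (4 of 9 genes, against 2.16% of all genes), with Fos at 6412 and 3111 CPM, although all other cells had 6308 and 6047 CPM. The part of donor sex and of dissociation in these differences was not tested.

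**Figure D4:**
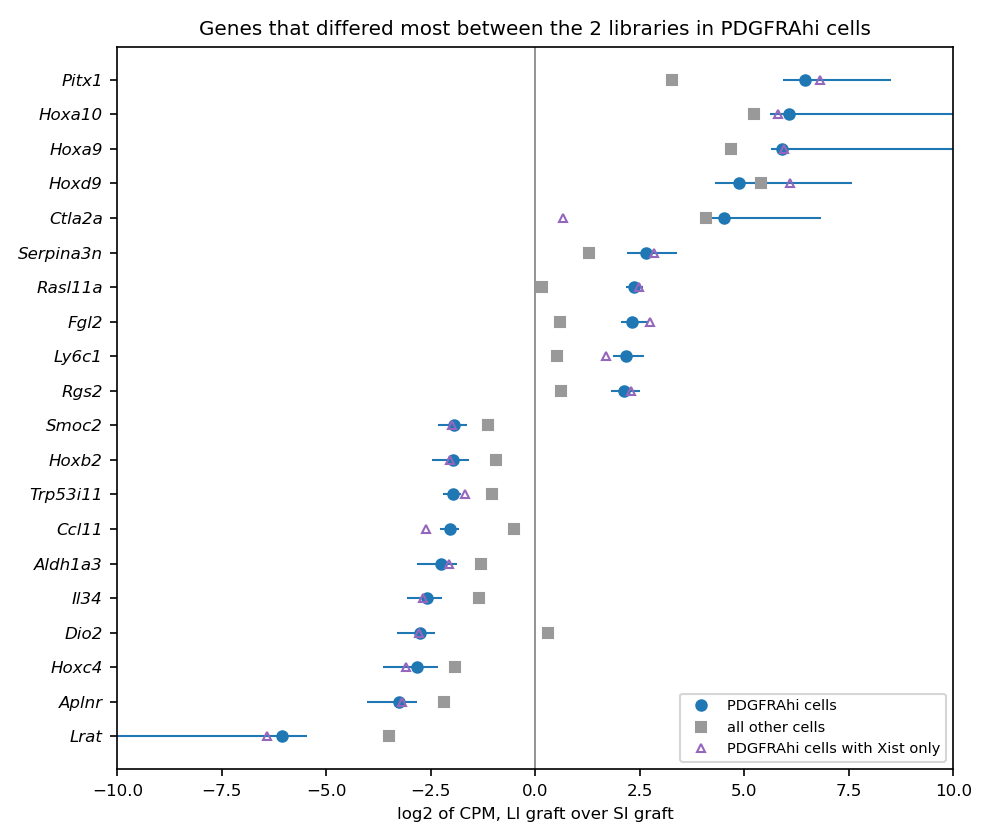
Log2 ratio of pooled CPM, LI graft over SI graft, of the 10 genes highest in each direction among PDGFRAhi cells (circles, with lines for the 95% interval, cut at the axis ends where it goes beyond), with the same ratio in all other cells (squares) and in PDGFRAhi cells with Xist and no Y-linked UMI (open triangles). Pitx1 (6.45) and Lrat (-6.05) are the farthest apart, and Dio2 is at -2.76 in the members and 0.30 in all other cells.

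Clustering of the PDGFRAhi cells of each library alone gave 5 subclusters in the LI and 7 in the SI graft. Under other settings the LI graft gave 4 to 7 and the SI graft 4 to 7, with adjusted Rand indices (1 for identical grouping) against the grouping described here of 0.65 to 0.77 and 0.45 to 0.96. They are called by number and leading genes, since the genes that define a cluster are not a finding and no marker list was fixed for them. LI graft subcluster 1 (132 cells) was led by the contractile genes Cnn1, Tnni2, Des and Myh11 and by Gdnf, the neurotrophic factor of enteric nerves. Each of the 5 was without a UMI in most of its cells, as Cnn1 had a UMI in 6 of the 132 cells, Des in 16, Tnni2 in 30, Myh11 in 32 and Gdnf in 37. It had 425.5 CPM of Sox6, 1942 CPM of Acta2 and 479.6 CPM of Thbd, the thrombomodulin gene, which were the highest levels of the LI graft subclusters. Subcluster 2 (115 cells) was led by Apod, Nppc, Ccl8, Gbp4 and H2-Q7, genes of lipid carriage, a natriuretic peptide and the interferon response. Apod had a UMI in 5 of the 115 cells, Nppc in 4, Ccl8 in 11, Gbp4 in 18 and H2-Q7 in 43, so the first values rest on a small number of cells. The subcluster had Fos at 1466 CPM against 5011 CPM or more in the others.

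Subcluster 4 of the LI graft (95 cells) carried the most Nrg1 and Ptgs2. Nrg1 had 321 CPM there and 74.3 to 158 CPM in the others, and Ptgs2 had 272 CPM against 38.2 to 74.8 CPM. Its leading genes were Ptprr, Foxq1, Lrrc8c, Tbx3 and B4galnt1. Bmp5 was also highest there (528 CPM) and Thbd lowest (168 CPM). Adamdec1 had 13860 CPM against 5704 to 9392 CPM elsewhere. Only 1.05% of its barcodes were among the highest doublet scores.

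The SI graft had a subcluster rich in Nrg1 as well, number 4 (68 cells), led by Adamts18, Npnt, Angptl6, Fst and Hpgd. Nrg1 had 251 CPM there against 2.02 to 112 CPM in the others, Bmp4 604 CPM, Bmp5 522 CPM, Foxl1 113 CPM and Adamdec1 8027 CPM. Ptgs2 had 51.1 CPM there, below the 97.8 CPM of subcluster 3, and Thbd stood at 549 CPM, the highest SI graft value. Nrg1-rich cells of the LI graft were thus the poorest in Thbd and those of the SI graft the richest. Subclusters 1 (110 cells, led by Edn3, Fam180a, Ppp1r9a, Plcg1 and Adcy5) and 2 (77 cells, led by Gm15284, Defa24, Nppc, Rsad2 and Palmd) had the highest Sox6 (524 and 495 CPM) and Pdgfra (1818 and 1471 CPM) with little Nrg1 (8.94 and 2.02 CPM). Defa24 is an alpha-defensin gene of Paneth cells, an epithelial cell type. Its UMIs lay in 9 of the 77 cells of subcluster 2, as did those of Nppc, and those of Gm15284 in 7.

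SI graft subcluster 5 (49 cells) was led by the Wnt ligand genes Wnt10a and Wnt6 with Col7a1, the anchoring fibril collagen, Slc7a2 and Cd83. Wnt10a had 130 CPM there and at most 12.99 CPM in the others, and Wif1 had 171 CPM against 65.7 CPM or less. Cxcl14 reached 1676 CPM. All 49 cells had Xist and no Y-linked UMI. Subcluster 6 (31 cells) was led by Saa3, Cxcl9, Apol6, Gbp4 and Serpina3f, although all 114 UMIs of Saa3 came from 1 cell. It had 2054 CPM of Cxcl9, from 23 cells, and held 24 cells with Y-linked UMIs only (77.4%). The remainder of it included 5 cells with Xist only. LI graft subcluster 1 held 130 cells with Xist only, in a library whose members were 89.2% so, and LI graft subcluster 2 held 18 of the 23 LI graft members with Y-linked UMIs only. The part of donor sex in these subclusters was not tested.

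Subcluster 3 of each graft (98 LI and 75 SI graft cells) was led by genes of adventitial fibroblasts. It was led by Ctla2a, Myoc, Pi16, Chrdl2 and C1qtnf3 in the LI graft, while its leading genes for the SI graft included Fmo2, Pi15, Col8a1 and Prss23. In the LI graft Ctla2a had a UMI in 10 of the 98 cells, Myoc in 9, Chrdl2 in 12, Pi16 in 17 and C1qtnf3 in 42. In the SI graft Pi16 had a UMI in 7 of the 75 cells, Col8a1 in 20, Pi15 in 24, Fmo2 in 30 and Prss23 in 36. Pi16 had 134 and 125.5 CPM there, Mfap5 398 and 589.6 CPM, and C3 159 and 286 CPM. Pdgfra (293 and 444 CPM), Sox6 (79.6 and 128 CPM) and, in the LI graft, Foxl1 (6.03 CPM) were below their level over all members. Among these barcodes 48.0% and 42.7% had the highest doublet scores, and Rgs5 of pericytes had 111 and 594 CPM. Without these cells, an alternative chosen after the data were seen, 247 genes were at least 2-fold higher and 264 lower in the members of both grafts than in all other cells.

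**Figure D5:**
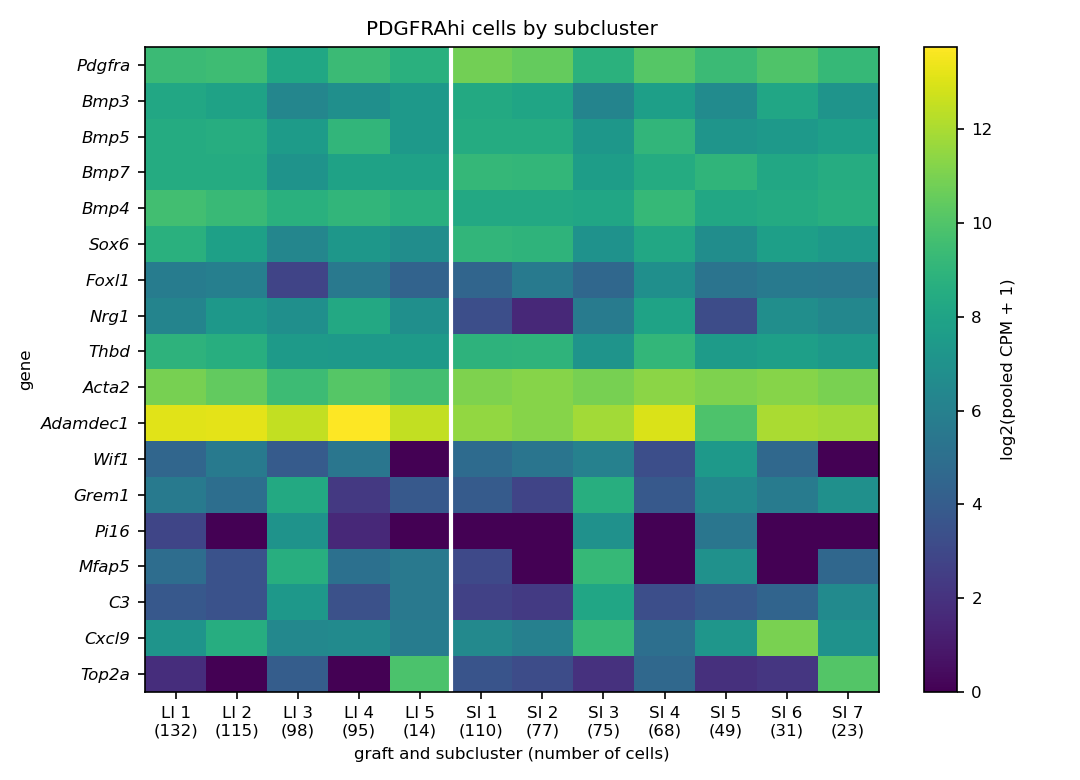
Colour gives log2(pooled CPM + 1) of 18 genes (rows) in the 5 LI and 7 SI graft subclusters of PDGFRAhi cells (columns, with their number of cells). Grem1, Pi16, Mfap5 and C3 are brightest in subcluster 3 of both grafts, Nrg1 in subcluster 4 of both, Cxcl9 in SI graft subcluster 6, and Top2a in LI graft subcluster 5 and SI graft subcluster 7.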

How the data were processed

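Single-cell libraries had been made with 10x Genomics Chromium kits. Reads had been aligned to mm10 and counted with CellRanger 3.1.0, and the authors deposited raw UMI counts for each gene and barcode of a library. No normalization or cell annotation came with these counts. The deposited barcodes had at least 500 UMIs in the LI and 501 in the SI graft. The study states that debris and doublets were removed in its own analysis, without limits.

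Here the counts (63348069 UMIs over 11568 LI graft barcodes, 54918006 over 9631 SI graft barcodes) were filtered as the rule states and summed over groups of cells to pooled CPM. A floor of 3 UMIs is 1.04 CPM in LI and 0.952 CPM in SI graft members. Genes needed a mean of 10 CPM over the groups compared, in each library for comparisons within grafts. CPM carry Poisson, shares Clopper-Pearson and ratios exact binomial 95% intervals, for counting error only. No test was run, as each graft had 1 library and its cells do not count as replicates.

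Doublets were scored with Scrublet in scanpy 1.11.5. Its own threshold called 0 and 2 barcodes, so the highest scores, 0.8% per 1000 barcodes, were left out only as an alternative. Cells were called female by Xist and male by Ddx3y, Eif2s3y, Kdm5d or Uty. Subclusters used leidenalg 0.10.2 at resolution 0.6 with 15 principal components and 1000 variable genes, without rule, mitochondrial, sex-linked and haemoglobin genes. The alternatives were other filters, gates, depth, sex, pseudocount, minimum, mean per-cell CPM and TMM factors (edgeR 4.0.16). Scripts were tested on simulated data.

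Genes named are the 12 highest and 8 lowest against all other cells and 8 each way against other Pdgfra+ cells by the weaker of both libraries' ratios, the 10 highest each way between grafts (50 CPM or more), members of the fixed lists, the 5 leading genes of each subcluster and Hox genes of at least 20 CPM. Sex-linked, haemoglobin, mitochondrial and rule genes were left out. Some genes that the rule or lists name are not reported here. The PDGFRAhi rule, lists and comparisons were chosen with earlier results of these data known. Igfbp5, Etv1, Cxcl14 and the genes by subcluster outside the rule were named after their values were seen. Adult lists came from the study's tables of bulk RNA sequencing. Coordinates are from GENCODE vM21 on GRCm38 (mm10), matched by Ensembl identifier for all 356 genes reported. The authors' annotation release is not given in the sources used here.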

Additional observations from a re-analysis of the deposited data

Results flagged for a closer look

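Sfrp2, a secreted Wnt antagonist, drew attention because it went in opposite directions in the 2 grafts. Its log2 ratio of PDGFRAhi cells over all other cells was -1.71 in the LI and 1.78 in the SI graft, and over other Pdgfra+ cells it was -2.16 and 1.74. The members had like levels in both libraries (26.3 and 24.4 CPM), while other Pdgfra+ cells had 121 CPM in the LI and 6.63 CPM in the SI graft. In SI graft members 90.5 CPM stood in subcluster 3, and the other subclusters had 20.9 CPM or less. With 1 library for each graft the difference was not tested.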

How the results depend on the processing

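The share of PDGFRAhi cells in the LI graft (4.60%) became 4.14% with limits of 200 genes and 20% mitochondrial UMIs, 5.07% among cells of at least 5000 UMIs, 1.60% with all 3 BMP genes required, 3.46% with 2 Pdgfra UMIs, 1.65% with the gate after thinning, and 5.08% and 2.59% among Xist cells and Y-linked cells alone. The SI graft share (5.47%) became 6.87%, 2.31%, 4.97% and 2.32% under the depth, all-3, 2-UMI and thinning alternatives. A minimum of 50 CPM left 74 higher and 67 lower genes against all other cells, 102 and 82 against other Pdgfra+ cells, and 67 and 58 for LI and SI. Without a minimum the counts were 322 and 515, 483 and 420, and 686 and 596, respectively. Genes higher in LI and SI graft members rose to 358 and 475 with the thinned gate and to 747 and 1251 in Y-linked cells, of which the LI graft had 23, fewer cells by construction. Every other count stayed within 1.5 times its main value. The SI graft had 4 subclusters at resolution 0.3 in place of 7.

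Of 92 ratios of named genes under 15 alternatives, 1374 of 1380 values stayed at 2-fold or more in the same direction. The exceptions were Ctla2a, with -0.05 without the highest doublet scores, 0.77 with all 3 BMP genes, 0.65 in Xist cells and 0.81 without subcluster 3, and, in Y-linked cells, Rasl11a with 0.38 and Ccl11 with 0.03. Ctla2a and Ccl11 changed direction there. The cause was not tested. TMM factors moved the all-gene median from 0.09 and 0.16 to -0.02 and -0.01 against all other cells and from -0.08 to 0.00 for LI over SI, more than the margin by which Bmp4 passed 2-fold in the SI graft. No paired analysis was possible because each graft has 1 library, which also leaves no replicate to leave out. Levels under 1.04 CPM in LI and 0.952 CPM in SI graft members, 3 UMIs, lie at the limit of depth.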

Other observations

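Genes fixed as marks of adult colonic PDGFRAhi subclusters were read in the grafts. Of 13 measured, Thbd, Nrg1 and Wnt4 were at least 2-fold higher in the members of both grafts than in all other cells (2.09% of all genes were) and none was lower. Thbd, the thrombomodulin gene (CD141), had 303 CPM in LI graft members against 80.7 CPM and 328 CPM in SI graft members against 73.4 CPM. Cd9, a tetraspanin gene, hardly set the members apart, with ratios of -0.32 and 0.15. Within the members, Cd9 ranged from 244.5 to 317 CPM over LI graft subclusters and from 261.5 to 621 CPM over SI graft subclusters, with the highest value in subcluster 5, where Thbd had 187 CPM. Cxcl12 was highest in subcluster 1 of both grafts, with 1201 and 1318 CPM, and lowest in the Nrg1-rich LI graft subcluster 4 (422.5 CPM) and in SI graft subcluster 5 (339 CPM). Between the libraries 6 of these 13 genes were at least 2-fold higher in LI graft members (Nrg1, Ptgs2, Aspn, Ly6c1, Adamdec1 and Plpp3), against 2.16% of all genes, and 1 in SI graft members (Cxcl10), against 2.51%.

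Defa24 had no UMI in any LI graft group of cells and 25.7 CPM in SI graft members against 6.02 CPM in all other SI graft cells. It had 117 CPM in SI graft subcluster 2, from 9 of its 77 cells, 28.6 CPM in subcluster 1 and 16.2 CPM or less elsewhere, while Epcam had 2.02 CPM in subcluster 2 and 14.3 CPM in subcluster 1. The part of epithelial RNA in this was not tested.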
